A study of Mus musculus with 8 samples.

Results

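The receptors for the Fc part of IgG, the signalling chain that most of them share, and the secreted ligand Fgl2 were followed in macrophages that had been exposed to IL-10 with or without the phosphatase gene Ptpn1. The 6 genes were Fcgr1, Fcgr3, Fcgr4, Fcer1g, Fcgr2b and Fgl2, chosen by name with earlier results of these data known. Each stood on 1 row of the 11996 genes in the deposited table. All 6 passed the filter on low signal, as did 11400 genes in all. RNA was sequenced from thioglycolate-elicited peritoneal macrophages of C57BL/6 mice, cells drawn into the abdominal cavity by an irritant, which had adhered to plastic for 24 h. The 4 groups were Ptpn1-/- cells with IL-10 at 100 ng/ml for 4 h, Ptpn1-/- cells after mock treatment, wildtype cells with the same IL-10 treatment and wildtype cells after mock treatment, with 2 samples per group in the labels. The titles of the mock samples call them untreated. The sources used here do not say how the knockout was made, whether the animals were littermates or whether cells of several mice were pooled.

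Fc gamma receptors bind the constant part of IgG and so let macrophages take up and respond to antibody-coated particles and immune complexes. In the mouse, FcgRI, FcgRIII and FcgRIV are activating and signal through the common gamma chain encoded by Fcer1g, whose activation motif recruits the kinase Syk after phosphorylation by Src-family kinases. FcgRIIB carries an inhibitory motif of its own and recruits the lipid phosphatase SHIP1, so the balance of activating and inhibitory receptors sets the threshold for the response to immune complexes. Fgl2 is a fibrinogen-like protein that exists as a membrane-bound prothrombinase and as a secreted form, and the secreted form is a ligand of FcgRIIB. IL-10 acts on macrophages through JAK1, TYK2 and STAT3, and PTP1B, the product of Ptpn1, removes phosphate from tyrosines of JAK kinases and receptors.

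The table gives 1 value per gene and group, which is printed as the authors' value for the group, without an SD or an n. No difference below could therefore be set against the spread between samples, no test was possible, and words such as "higher" compare single group values. Differences are log2 ratios of signal after a pseudocount of 26.7 units was added to both values, and a limit of 2-fold, a log2 ratio of 1, stands in for a test. Sequencing depth per sample is unknown. Ptpn1 itself was listed at 5391.5 units in knockout cells and 6736 units in wild-type cells with IL-10, and at 3836.5 units in knockout cells and 4960.5 units in wild-type cells after mock treatment. Its signal was thus not absent from the columns labelled knockout, and the labels do not say which part of the gene was deleted, so this is a weak check of the labels. The defining macrophage markers were high in every group: Emr1, an adhesion receptor gene, ranged between 10088.5 and 11367 units and the receptor gene Csf1r between 13685 and 16138 units. In RNA from whole cultures, fewer cells of a type and less RNA per cell cannot be told apart.

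The 250 bases before the annotated start site are shown for the genes whose signal differed most between the groups, as RefSeq gives them on GRCm38.p6, a later build than the mm9 of the deposited coordinates. All 6 genes matched the RefSeq table. Capitals mark a match to 1 of 3 motifs searched on both strands: the STAT-type palindrome TTCNNNGAA, the interferon-type repeat of GAAA, any 2 bases and GAAA, and the AP-1 type site TGANTCA, which do not overlap in these windows. Fgl2 is at chr5:21372423-21372672 on the plus strand, Fcgr2b at chr1:170976072-170976321 on the minus strand, Fcgr1 at chr3:96293970-96294219 on the minus strand and Fcgr4 at chr1:171018676-171018925 on the plus strand, each printed 5′ to 3′ towards its gene.
Fgl2: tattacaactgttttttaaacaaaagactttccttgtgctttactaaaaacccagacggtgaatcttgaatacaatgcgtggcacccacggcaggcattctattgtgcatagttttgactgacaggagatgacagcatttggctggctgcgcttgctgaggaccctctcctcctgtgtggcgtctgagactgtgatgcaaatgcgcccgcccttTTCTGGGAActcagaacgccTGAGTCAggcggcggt
Fcgr2b: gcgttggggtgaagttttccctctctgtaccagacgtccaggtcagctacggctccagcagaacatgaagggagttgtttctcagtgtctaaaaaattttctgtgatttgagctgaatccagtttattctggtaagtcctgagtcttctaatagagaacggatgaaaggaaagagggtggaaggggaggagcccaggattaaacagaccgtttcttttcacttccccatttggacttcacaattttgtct
Fcgr1: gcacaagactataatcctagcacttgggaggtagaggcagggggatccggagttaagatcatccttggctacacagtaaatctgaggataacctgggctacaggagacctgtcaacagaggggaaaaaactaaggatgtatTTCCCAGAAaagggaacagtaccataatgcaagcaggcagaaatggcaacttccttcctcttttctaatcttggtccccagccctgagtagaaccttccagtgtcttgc
Fcgr4: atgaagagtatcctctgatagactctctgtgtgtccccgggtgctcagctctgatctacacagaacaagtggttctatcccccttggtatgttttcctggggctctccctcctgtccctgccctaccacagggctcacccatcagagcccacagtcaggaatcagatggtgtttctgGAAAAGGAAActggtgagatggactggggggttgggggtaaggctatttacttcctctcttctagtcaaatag

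The Fgl2 window held TTCTGGGAA at bases -36 to -28 before the start site and TGAGTCA at bases -16 to -10. The Fcgr1 window held TTCCCAGAA at bases -109 to -101, and the Fcgr4 window held GAAAAGGAAA at bases -73 to -64. None of the 3 motifs was found in the windows of Fcgr2b, Fcgr3 or Fcer1g. Of 32536 distinct RefSeq windows of the same length, 7.04% held the STAT-type palindrome, 2.98% the interferon-type repeat and 6.73% the AP-1 type site. The core of sites for the myeloid factor PU.1, GAGGAA on either strand, stood in the windows of Fcgr1, Fcgr3 and Fcgr4 and in 23.4% of all windows. A match describes the letters of the window and shows no binding.

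Fgl2 was the member with the largest differences. Its row lies on mm9 chromosome 5, 20878460 to 20884192, on the plus strand (ENSMUSG00000039899). The signal was 8437.5 units in knockout cells with IL-10 and 1240.5 units in knockout cells after mock treatment, a log2 ratio of 2.74. In wild type it was 4362.5 units with IL-10 and 753 units after mock treatment, a log2 ratio of 2.49. Both groups with IL-10 therefore stood above both mock groups. By its IL-10 ratio Fgl2 was at rank 5 of 11400 genes in either genotype. Between the genotypes, Fgl2 was higher in knockout cells by a log2 ratio of 0.95 with IL-10 and 0.70 after mock treatment, both short of 2-fold.

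The inhibitory receptor gene Fcgr2b (ENSMUSG00000026656; mm9 chromosome 1, 172894464 to 172906258, minus strand) was the other member past 2-fold. It was listed at 22174 units in knockout cells with IL-10 and 7139 units in knockout cells after mock treatment, a log2 ratio of 1.63. Wild-type cells had 13145 units with IL-10 and 5784 units after mock treatment, a log2 ratio of 1.18. The knockout mock value lay 1.23-fold above the wild-type mock value, whereas the knockout value with IL-10 lay 1.69-fold above the wild-type value with IL-10. The IL-10 log2 ratio of the knockout minus that of wild type was 0.45, at rank 149 of 11400 genes, and was the highest among the members. Whether it exceeds the spread between samples could not be tested.

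Fcgr1 encodes FcgRI, the high-affinity receptor for IgG (ENSMUSG00000015947; mm9 chromosome 3, 96086832 to 96097892, minus strand). Its signal was 3888 units in knockout cells with IL-10 and 2531.5 units in knockout cells after mock treatment, a log2 ratio of 0.61. In wild-type cells it was 2547 units with IL-10 and 1453 units after mock treatment, a log2 ratio of 0.80. The knockout mock level and the wild-type level with IL-10 were the closest pair in the order of its 4 levels. After mock treatment Fcgr1 had the highest genotype ratio of the members, a log2 ratio of 0.79 at rank 75 of 11400, and with IL-10 the ratio was 0.61.

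Fcgr4 encodes FcgRIV, an activating receptor of monocytes, macrophages and neutrophils (ENSMUSG00000059089; mm9 chromosome 1, 172949051 to 172959892, plus strand). It was listed at 6026 units in knockout cells with IL-10 and 3863 units after mock treatment, a log2 ratio of 0.64, and at 4194 units in wild-type cells with IL-10 and 2818 units after mock treatment, a log2 ratio of 0.57. Knockout values were above the wild-type values of the same treatment, with log2 ratios of 0.52 with IL-10 and 0.45 after mock treatment. Both ratios were smaller once the trend over transcript length was subtracted, at 0.41 and 0.26.

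Fcgr3 encodes FcgRIII, an activating receptor of low affinity (ENSMUSG00000059498; mm9 chromosome 1, 172981305 to 172988185, minus strand). Its signal was 18141 units in knockout cells with IL-10 and 12222 units after mock treatment, against 15827 units in wild-type cells with IL-10 and 10587.5 units after mock treatment. The IL-10 log2 ratios were 0.57 in the knockout and 0.58 in wild type, so the responses of both genotypes differed by -0.01. The genotype ratios were 0.20 with IL-10 and 0.21 after mock treatment, or 0.09 and 0.02 with the length trend subtracted.

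Fcer1g, the signalling chain, stood almost level (ENSMUSG00000058715; mm9 chromosome 1, 173159703 to 173164496, minus strand). It was listed at 29519 units in knockout cells under both treatments, at 28324.5 units in wild-type cells with IL-10 and at 26305.5 units in wild-type cells after mock treatment. The log2 ratios between groups lay between 0.00 and 0.17. With the length trend subtracted, its genotype ratios were -0.07 with IL-10 and -0.05 after mock treatment, so its direction between the genotypes depended on the scaling. The signal lies where neighbouring ranks can be far apart: in the knockout column with IL-10 the adjoining values were 29004 and 29786 units. In the wild-type mock column they were closer, at 26197 and 26352 units.

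**Figure D1:**
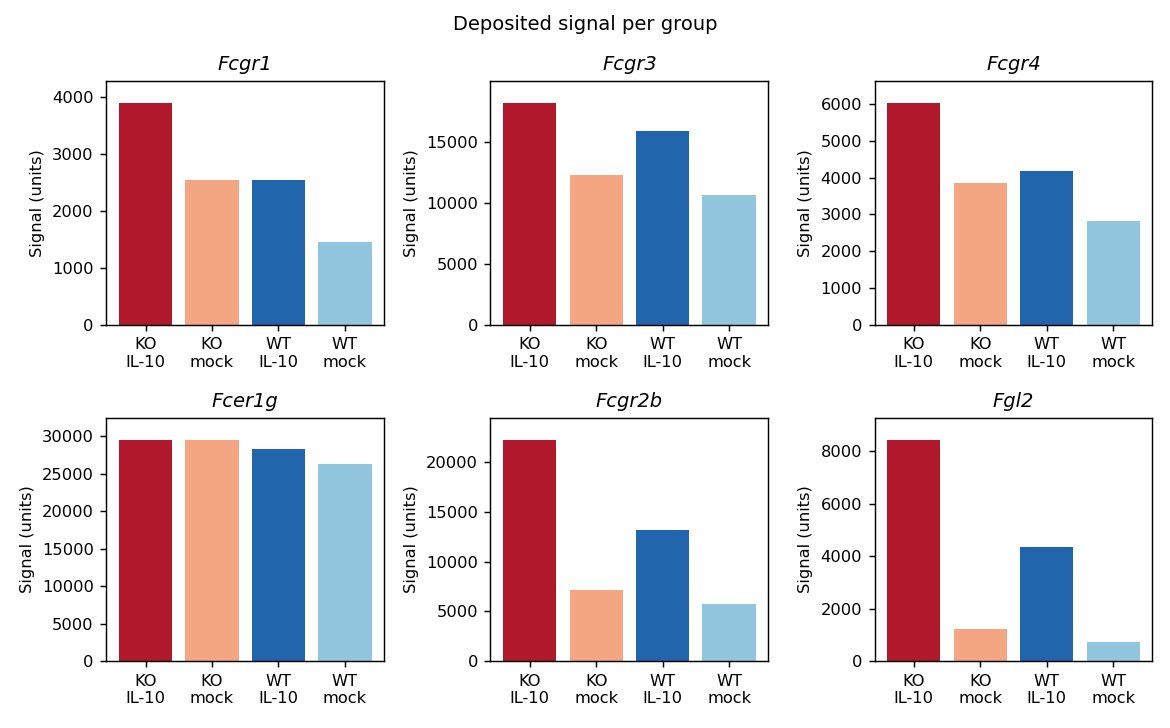
Deposited signal in units for each member (1 panel per gene, each with its own axis from 0) in knockout and wild-type macrophages with IL-10 or mock treatment; bars are single group values without error. Every member but Fcer1g stands highest in knockout cells with IL-10, Fgl2 at 8437.5 and Fcgr2b at 22174 units. Fcer1g spans only 26305.5 to 29519 units.

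Across the members, 5 of the 6 members had the same order of levels: knockout with IL-10, then wild type with IL-10, then knockout mock, then wild type mock. This order was held by 7.82% of the 11400 genes, and Fcer1g was the exception. The members were chosen with earlier results of these data known, so the shares of all genes beside them are no test. In the IL-10 response of wild type, 2 of 6 members, Fgl2 and Fcgr2b, were at least 2-fold higher, beside 0.465% of all genes. The same 2 members passed in the knockout, beside 0.877% of all genes. At the lower limit of 1.5-fold, 4 of 6 passed in the knockout, beside 2.32% of all genes, and 3 of 6 in wild type, beside 1.54%. Fcgr3 in both genotypes and Fcgr4 in wild type lay just under that limit, with ratios between 1.48-fold and 1.49-fold. The median log2 ratio of the members was 0.63 in the knockout and 0.69 in wild type, whereas the medians of all genes were -0.01 in the knockout and 0.00 in wild type.

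Between the genotypes no member reached 2-fold under either treatment, beside 0.596% of all genes with IL-10 and 0.325% after mock treatment that were past it upward. All 6 were above 0 in both comparisons, beside 51.8% of all genes with IL-10 and 53.5% after mock treatment. With the length trend subtracted, Fcer1g fell below 0 in both, at -0.07 with IL-10 and -0.05 after mock treatment. At 1.5-fold, Fgl2, Fcgr2b and Fcgr1 passed with IL-10, beside 1.80% of all genes, and Fgl2 and Fcgr1 after mock treatment, beside 1.43%. The median of the members was 0.56 with IL-10 and 0.38 after mock treatment, against 0.01 and 0.02 for all genes. The comparisons of both genotypes with IL-10 and of IL-10 with mock treatment share columns and are not independent of each other. In the knockout response minus the wild-type response to IL-10, no member reached 2-fold, beside 0.0965% of all genes that were past it upward. There 3 of 6 members were above 0, beside 48.7% of all genes, and the median of the members was 0.03. With the length trend subtracted, Fcgr3 turned from -0.01 to 0.06 in this difference. No member was 2-fold lower anywhere, beside 0.0175% of all genes in the IL-10 response of either genotype, 0.0789% between the genotypes with IL-10, 0.105% between them after mock treatment and 0.0351% in the difference of the responses.

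**Figure D2:**
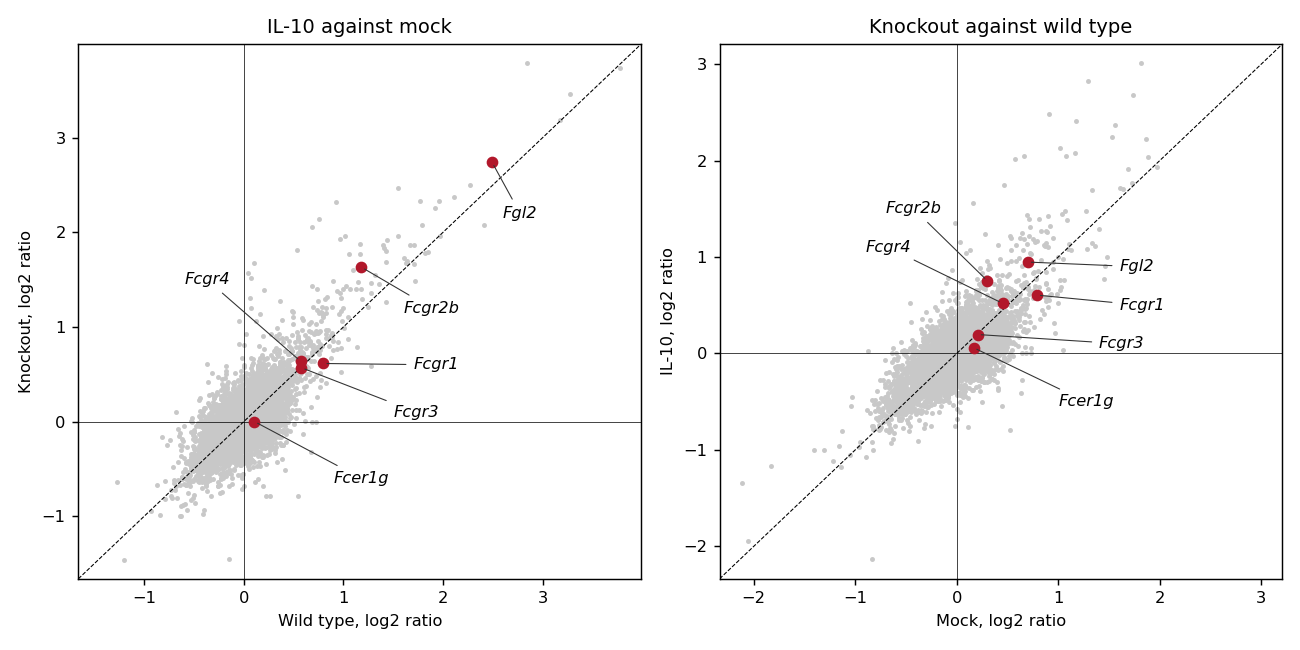
Left, log2 ratio of IL-10 against mock treatment in the knockout (vertical) against that in wild type (horizontal); right, log2 ratio of knockout against wild type with IL-10 (vertical) against that after mock treatment (horizontal). Grey points are the 11400 genes that passed the filter, red points the members, and the dashed line marks equal ratios; Fcgr2b lies above the line in both panels, at 1.63 and 1.18 on the left and 0.75 and 0.30 on the right.

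The balance between the inhibitory and the activating receptor genes was described by subtracting the log2 ratio of each activating receptor from that of Fcgr2b. It is a balance of RNA signals, and receptor protein was not part of these data. With IL-10 the balance moved towards Fcgr2b in both genotypes. In the knockout the difference was 1.06 against Fcgr3, 1.02 against Fcgr1 and 0.99 against Fcgr4, so the signal of Fcgr2b relative to each receptor was 1.99-fold to 2.09-fold that of the mock group. In wild type it was 0.60 against Fcgr3, 0.38 against Fcgr1 and 0.61 against Fcgr4, or 1.30-fold to 1.53-fold. The knockout shift was larger than the wild-type shift by 0.46, 0.64 and 0.38 in the same order. These values all contain the same Fcgr2b difference of 0.45 and are not independent of each other.

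Between the genotypes the balance did not move one way. After mock treatment Fcgr2b relative to Fcgr1 was lower in the knockout, with a difference of -0.49, and its differences against Fcgr4 and Fcgr3 were -0.15 and 0.10. With the length trend subtracted, the difference against Fcgr4 turned to 0.02 and that against Fcgr3 was 0.26, whereas that against Fcgr1 was -0.45. With IL-10 the differences were 0.56 against Fcgr3, 0.23 against Fcgr4 and 0.15 against Fcgr1. Fcgr2b and Fcgr3 share identical stretches, which limits this pair: 12.8% of the distinct 36-base stretches of the Fcgr3 transcripts in GENCODE M21 also occurred in Fcgr2b transcripts, and 5.70% of those of Fcgr2b in Fcgr3. Reads from these stretches may be divided between both genes. RSEM and Bowtie are named without their roles, so how the authors assigned such reads is not known. No such stretch was shared with Fcgr1 or Fcgr4.

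**Figure D3:**
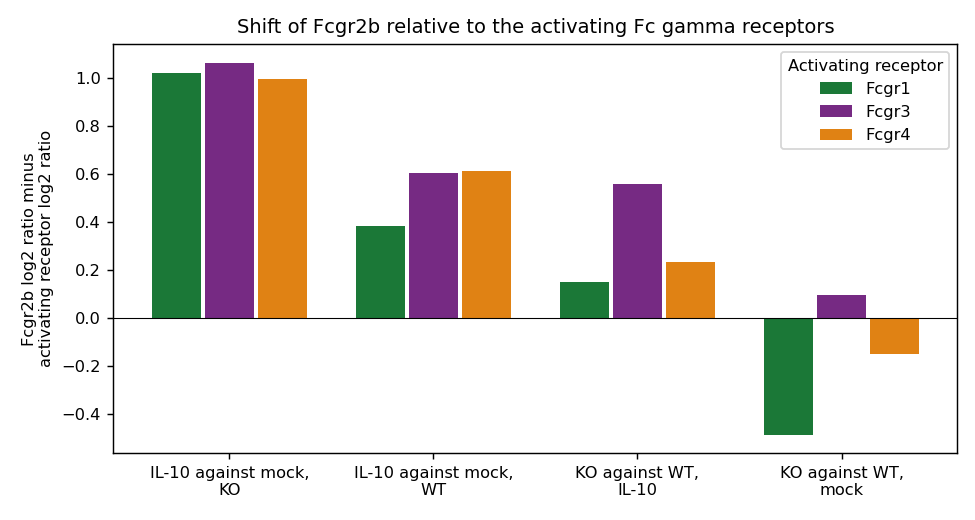
Log2 ratio of Fcgr2b minus that of Fcgr1, Fcgr3 or Fcgr4 (vertical axis) in the 4 comparisons named below the bars; a bar above 0 means that Fcgr2b gained on that receptor. The shift with IL-10 was 0.99 to 1.06 in the knockout and 0.38 to 0.61 in wild type, and the mock comparison of the genotypes holds bars on both sides of 0, of which that of Fcgr4 turns from -0.15 to 0.02 with the length trend subtracted.

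Most of the members are neighbours in the genome. Fcgr2b, Fcgr4 and Fcgr3 lie within 93.7 kb of mm9 chromosome 1, and Fcer1g starts 172 kb beyond the end of Fcgr3. The 4 listed genes between Fcgr3 and Fcer1g had IL-10 log2 ratios between -0.19 and 0.08 in the knockout and between -0.12 and 0.41 in wild type. Of these, the mitochondrial gene Sdhc had IL-10 log2 ratios of 0.08 in knockout cells and 0.10 in wild-type cells. On the other side of Fcgr2b lie Fcrla, which failed the filter with at most 18 units in any group, and beyond it Fcrlb, an intracellular Fc receptor homologue, whose row was low: 116.5 units in knockout cells with IL-10 and 48 units after mock treatment, against 62.5 units in wild-type cells with IL-10 and 26.5 units after mock treatment. Its IL-10 log2 ratios were 0.94 in the knockout and 0.75 in wild type.

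The genes whose profile over the 4 groups was nearest to that of Fgl2 were Casp4, Slc28a2 and Lrg1, by the root mean square difference of centred log2 signals, which was 0.18, 0.24 and 0.24. Casp4 encodes an inflammatory caspase, Slc28a2 a nucleoside transporter and Lrg1 a secreted leucine-rich glycoprotein. Slc28a2 was listed at 7402 units in knockout cells with IL-10 and 1446.5 units after mock treatment, against 3704 units in wild-type cells with IL-10 and 933 units after mock treatment. Nearest to Fcgr2b were G530011O06Rik, the immunoproteasome subunit gene Psmb9 and the chemokine receptor gene Ccr1, at 0.07, 0.09 and 0.09. Ccr1 stood at 8886 units in knockout cells with IL-10 and 3227 units after mock treatment, against 5871 units in wild-type cells with IL-10 and 2275.5 units after mock treatment. Psmb9 is listed on 2 rows, and the nearer one was low, at 248 units in knockout cells with IL-10 and 50.5 units in wild-type mock cells. Each likeness rests on 4 group values.

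**Figure D4:**
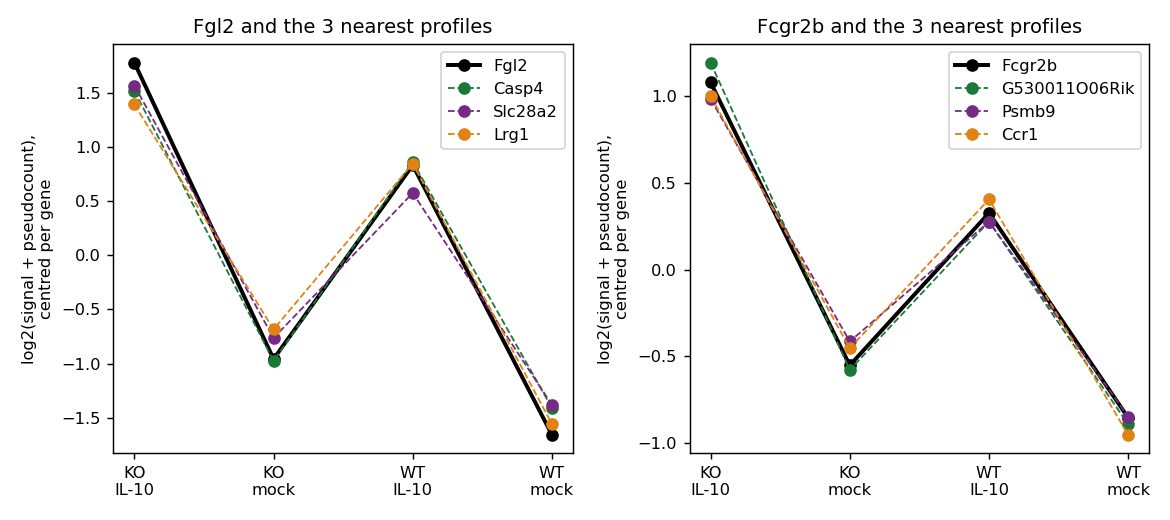
Log2(signal + pseudocount) centred on each gene's mean over the 4 groups, for Fgl2 (left) and Fcgr2b (right) in black and the 3 kept genes with the nearest profiles in colour; points are single group values. The root mean square difference from the member was 0.18 to 0.24 on the left and 0.07 to 0.09 on the right.

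Downstream of the activating receptors, 23 of 23 listed signalling genes passed the filter, and their IL-10 log2 ratios had a median of 0.16 in knockout cells and 0.05 in wild-type cells, against -0.01 for all genes in knockout cells and 0.00 in wild-type cells. The Src-family kinase gene Fgr was the 1 of 23 that was at least 2-fold higher, in the knockout only, beside 0.877% of all genes there. It stood at 4095 units with IL-10 and 1941 units after mock treatment. In wild type it stood at 3285 units with IL-10 and 1644 units after mock treatment, a log2 ratio of 0.99. Vav1, an exchange factor for Rac, had IL-10 log2 ratios of 0.93 in knockout cells and 0.73 in wild-type cells, and Lyn, another Src-family kinase, 0.51 in the knockout and 0.30 in wild type. None was 2-fold lower, and Syk, the kinase recruited to the activation motif, had 0.17 in the knockout and 0.02 in wild type.

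Of the genes that carry or limit the inhibitory signal, 12 passed the filter. None of them differed 2-fold in any comparison, beside at most 0.877% of all genes higher and 0.105% lower. Their IL-10 log2 ratios had a median of 0.00 in knockout cells and -0.03 in wild-type cells. Inpp5d, which encodes SHIP1, had 0.12 in the knockout and 0.08 in wild type. Ptpn6, which encodes the phosphatase SHP-1, had 0.21 in the knockout and 0.16 in wild type. The ubiquitin ligase gene Cbl had -0.16 in the knockout and -0.43 in wild type. Ubash3b, a phosphatase that acts on Syk, had 0.42 in the knockout and 0.40 in wild type, and Cblb, another ubiquitin ligase gene, had 0.21 in the knockout and 0.31 in wild type.

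A list of Tyrobp and of myeloid receptors, most of which signal through Fcer1g or the related chain Tyrobp, held 18 names, of which 12 passed the filter. None of these differed 2-fold in any comparison, beside at most 0.877% of all genes higher and 0.105% lower. Their IL-10 log2 ratios had a median of -0.11 in knockout cells and 0.08 in wild-type cells. Between the genotypes, by the larger ratio of both treatments, the lectin gene Clec4n led, with 0.64 with IL-10 and 0.53 after mock treatment. Sirpb1a followed, with 0.61 with IL-10 and 0.56 after mock treatment, and Pilrb1, with 0.53 with IL-10 and 0.55 after mock treatment. All came from low signals of at most 321 units. After mock treatment Clec4e, at 0.55, stood above Clec4n. Tyrobp itself had IL-10 log2 ratios of -0.14 in knockout cells and -0.25 in wild-type cells. Among other Fc receptors and homologues 6 of 12 names were listed and 4 of them passed the filter. None of these reached 2-fold, beside the same shares of all genes. Fcgrt, which encodes the neonatal Fc receptor that recycles IgG, was at 891 units in knockout cells with IL-10 and 803.5 units after mock treatment, against 793 units in wild-type cells with IL-10 and 801 units after mock treatment. Trim21, a cytosolic antibody receptor, had IL-10 log2 ratios of 0.29 in knockout cells and 0.35 in wild-type cells. Those of Fcrl1 were 0.24 in the knockout and 0.47 in wild type, and those of Fcrls 0.48 in the knockout and 0.72 in wild type, both from low signals of at most 192 and 99.5 units.

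Among fibrinogen-related and coagulation genes, 16 of 21 names were listed and passed the filter. None of these differed 2-fold in any comparison, beside at most 0.877% of all genes higher and 0.105% lower. Their IL-10 log2 ratios had a median of 0.07 in knockout cells and 0.09 in wild-type cells. F10, which encodes the coagulation factor that also cleaves prothrombin, had 0.17 in the knockout and 0.29 in wild type, and the tissue factor gene F3 had -0.05 in the knockout and -0.48 in wild type. F13a1, which encodes a chain of the clot-stabilising transglutaminase, had 0.44 in the knockout and 0.77 in wild type. F2r, the thrombin receptor gene, stood at 147 units in knockout cells and 190 units in wild-type cells with IL-10, and at 128 units in knockout cells and 225 units in wild-type cells after mock treatment. The urokinase gene Plau was higher in knockout cells, at 4317.5 units against 2676 units in wild-type cells with IL-10 and at 3878.5 units against 2746.5 units after mock treatment.

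**Figure D5:**
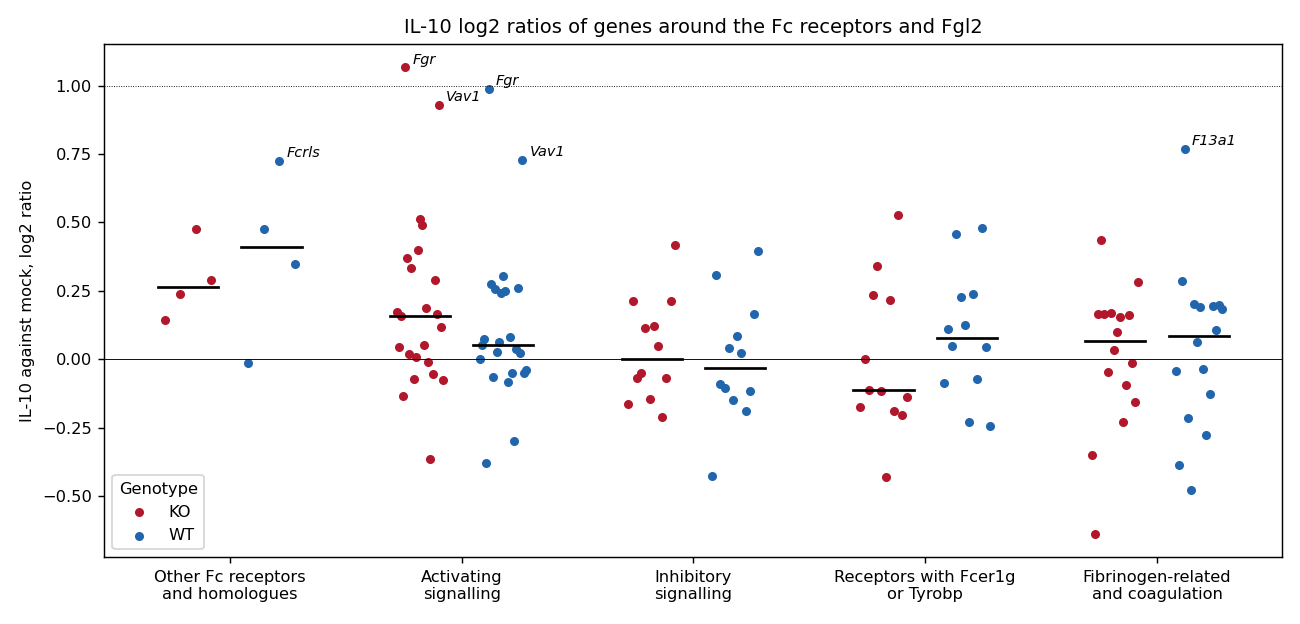
Log2 ratio of IL-10 against mock treatment for every kept gene of the 5 lists, knockout in red and wild type in blue, with the median as a bar and the 2-fold limit as a dotted line. Fgr is the 1 point above the limit, at 1.07 in the knockout.

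Markers of macrophages and of other cells gave these values beside the members' differences. Of 5 monocyte markers, all listed, 5 were higher in the knockout after mock treatment and 4 of 5 with IL-10. Of all genes, 53.5% were higher in the knockout after mock treatment and 51.8% with IL-10. F13a1 was counted as higher after mock treatment at 383 units against 381 units in wild-type cells. The summed signal of the monocyte markers with IL-10 was 1779 units in knockout cells and 1383 units in wild-type cells. After mock treatment it was 1150.5 units in knockout cells and 798 units in wild-type cells. The sum thus moved with both IL-10 and genotype, but not every marker did. Ccr2 and F13a1 made up most of it, and F13a1 had a genotype log2 ratio of -0.33 with IL-10. Ly6c2 had IL-10 log2 ratios of 0.06 in knockout cells and -0.05 in wild-type cells. In the knockout, Ly6c2 was past 2-fold higher under both treatments and Plac8 with IL-10, from signals of at most 105.5 units. Of 6 mesothelial and fibroblast markers, 6 were lower in the knockout after mock treatment, and 5 of 6 with IL-10. Msln was counted as lower after mock treatment at 41 units against 41.5 units in wild-type cells. Col3a1 was past 2-fold lower, with genotype log2 ratios of -1.11 with IL-10 and -1.21 after mock treatment. The sum of the 6 markers was 8673.5 units in knockout cells and 14233 units in wild-type cells with IL-10. After mock treatment it was 8155 units in knockout cells and 14277.5 units in wild-type cells. Of 7 listed macrophage markers, 5 were lower in the knockout with IL-10 and 4 after mock treatment, Lyz2 among them at 136851.5 units in knockout cells and 362618 units in wild-type cells after mock treatment. The wild-type mock value equals the highest signal of the data, and Lyz2 had 136851.5 units in both knockout groups. At such signals neighbouring ranks can lie far apart, as for Fcer1g in knockout cells with IL-10, so the size of this gap was not interpreted. Of 6 mast cell markers 4 were listed, and all 4 were higher in the knockout, with sums of 491.5 units in knockout cells and 317.5 units in wild-type cells with IL-10 and of 438.5 units in knockout cells and 290.0 units in wild-type cells after mock treatment. Of 4 markers of resident peritoneal macrophages 3 were listed and moved with genotype in both directions: Cxcl13 had log2 ratios of knockout against wild type of 0.73 with IL-10 and 0.88 after mock treatment, Icam2 0.34 with IL-10 and 0.37 after mock treatment, and Gata6 -0.66 with IL-10 and -0.74 after mock treatment. Their summed signal was 2292 units in knockout cells and 1791.5 units in wild-type cells with IL-10, and 2337.5 units in knockout cells and 1765.5 units in wild-type cells after mock treatment. Of 4 eosinophil markers Siglec5 was listed, at 477 units in knockout cells with IL-10 and 393 units after mock treatment, against 471.5 units in wild-type cells with IL-10 and 353.5 units after mock treatment. Of 5 B cell markers 3 were listed, none above 69.5 units, with sums between 110.0 and 149 units over the groups. Of 5 neutrophil markers 3 were listed, with sums between 2149.5 and 2540.5 units, nearly all from Csf3r. Of 4 dendritic cell markers 2 were listed, with sums of 155 units in knockout cells with IL-10 and 95.5 units after mock treatment, against 145.5 units in wild-type cells with IL-10 and 107 units after mock treatment. Cd209a carried it, with IL-10 log2 ratios of 1.26 in knockout cells and 1.43 in wild-type cells, whereas Zbtb46 had 0.03 in the knockout and -0.21 in wild type. Of 5 T cell markers Lck and Cd5 were listed, with a sum of 156 units in knockout cells with IL-10 and 41 units after mock treatment, against 116 units in wild-type cells with IL-10 and 27 units after mock treatment. Lck alone carried this difference, since Cd5, which failed the filter, stood at 28 units in knockout cells with IL-10 and 31 units after mock treatment, against 11 units in wild-type cells with IL-10 and 15.5 units after mock treatment. The remaining names of these lists, the 4 of NK cells among them, had no row under that name. The part of these markers in the members' differences was not tested.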

How the data were processed

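RNA sequencing of 8 samples in 4 groups of 2 was analysed from 1 table of 11996 genes with 1 column per group. Per the submitters' processing notes, RSEM, Bowtie and the mm9 build were used, with no version or role stated. Read length, annotation, normalization and filters are not stated. The authors deposited a normalized expression signal: the submitters named it CPM, but every column has a total of 26705598 and the same highest value, in steps of 0.5. This is how libraries look after being put on a common distribution and averaged (inferred, not recorded), a step that removes shifts common to most genes. Depth per sample is unknown, so no interval or floor is given.

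Log2 ratios were computed in Python 3.11.15 (pandas 2.3.3, numpy 2.4.6) over all 11400 genes with a mean of at least 1 ppm of the column total (26.7 units), with a pseudocount of the same size, which understates ratios of low genes. With 1 value per group the planned limma fits were not run, and no p-value is given. The ratio functions were tested on simulated data. The members, lists and limits were chosen with earlier results of these data known. Named genes were all members, up to 3 per list with the largest ratios, and the 3 nearest profiles of each member past 2-fold. Syk, Tyrobp, Fcgrt, Inpp5d, Ptpn6, F10, F3, the neighbours on chromosome 1 and the single markers were named after their values were seen. Transcript lengths and shared stretches came from GENCODE M21 (98.3% of genes matched), and promoters from RefSeq on GRCm38.p6.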

Additional observations from a re-analysis of the deposited data

How the results depend on the processing

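Every log2 ratio of the 6 members stayed on its side of the 2-fold limit under each alternative run: pseudocounts of 0.25 and 4 ppm, no filter, a filter at 5 ppm, centring on the median gene, and subtraction of the trend over transcript length. Over these, Fgl2 ranged from 2.66 to 2.76 in the knockout IL-10 response and from 2.38 to 2.52 in wild type, and Fcgr2b from 1.62 to 1.65 and from 1.17 to 1.18. The balance of Fcgr2b against Fcgr4 in the knockout IL-10 response was 0.99 and became 1.01, past the limit, with the length trend subtracted. Under the same alternative its balance between the genotypes after mock treatment turned from -0.15 to 0.02, and that of Fcgr2b against Fcgr3 moved from 0.10 to 0.26. Counts over all genes moved more. At 1.5-fold the genes higher and lower numbered 264 and 92 in the knockout IL-10 response, 176 and 47 in wild type, 205 and 113 for knockout against wild type with IL-10, 163 and 160 after mock treatment, and 57 and 30 for the difference of the responses. A pseudocount of 0.25 ppm gave 11 lower genes in the knockout IL-10 response, 6 in wild type, 19 for the genotypes with IL-10, 57 higher genes for the genotypes after mock treatment, and 19 higher and 11 lower for the difference. A pseudocount of 4 ppm gave 1 lower gene in the knockout response, 3 for the genotypes with IL-10, 18 higher and 5 lower after mock treatment, and 5 higher and 2 lower for the difference. The filter at 5 ppm gave 1 lower gene in the knockout response, 5 for the genotypes with IL-10, 6 after mock treatment, and 5 higher for the difference, where the length trend left 2 lower. The cause was not tested. No paired analysis was possible because the table gives 1 value per group; fits without 1 replicate were likewise not run.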
